A study of Mus musculus with 17 samples.

Results

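Adult marrow progenitors that had lost let-7b and let-7c were compared with adult marrow progenitors in which LIN28B had been induced, to show where the loss of let-7 genes and the induction of their inhibitor differ. Of the 17 RNA-seq libraries of the series, 7 were chosen by their labels: 3 let-7b/c knockout libraries and 4 inducible LIN28B libraries, of which 2 carried vavcre and 2 did not. The series covers fetal liver and adult bone marrow of several genotypes, and every library came from sorted common myeloid progenitors of the mouse, a population that gives rise to granulocytes, monocytes, red cells and megakaryocytes. The 3 wild-type adult marrow libraries served as the baseline. The knockout mice are labelled albino black 6 and carry a let-7b/c knockout. The inducible LIN28B mice and the wild-type mice are labelled C57BL/6J, so the knockout and the strain cannot be told apart. Per the labels, LIN28B was induced with doxycycline, and the lines labelled vavcre confine induction to blood cells. The labels do not say which let-7c gene was deleted, how old the mice were, whether each library stems from its own animal, or whether the induced gene is the mouse or the human one. The p-values below therefore measure the spread between libraries, which may be technical.

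let-7 microRNAs repress messenger RNAs that carry a match to their seed in the 3′ UTR, and among their best known targets are growth genes that are active in the fetus. LIN28B binds let-7 precursors, in large part through a GGAG motif in the loop, and blocks their maturation, so that its induction in the adult lowers many let-7 family members at once. In blood formation the LIN28B and let-7 axis is known for setting the fetal pattern of progenitor output, with HMGA2 as a main effector.

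The sequences shown here are the mature let-7b and let-7c, let-7a for comparison, and precursors with and without the motif that LIN28B reads. They were taken from RefSeq for GRCm38.p6, and capitals mark the seed, bases 2 to 8, in the mature forms.
let-7b-5p: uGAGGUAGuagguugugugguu
let-7c-5p: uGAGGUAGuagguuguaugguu
let-7a-5p: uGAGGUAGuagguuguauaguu
Counted from the 5′ end, let-7b-5p differs from let-7c-5p by A17G, outside the seed. All 11 mature 5p entries of the family hold 9 distinct sequences and share 1 seed. GGAG, searched on the hairpin's own strand between the arms and capitalised below, was found in 9 of the 12 hairpins, which include Mirlet7c-1. The 3 without it were Mirlet7b, Mirlet7c-2 and Mir98. Mirlet7b and Mirlet7c-2 lie side by side on the plus strand of chromosome 15, at chr15:85707319-85707403 and chr15:85706603-85706697. Mirlet7c-1 lies on the plus strand at chr16:77599657-77599750.
Mirlet7b: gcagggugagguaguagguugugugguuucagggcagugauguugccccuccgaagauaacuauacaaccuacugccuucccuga
Mirlet7c-2: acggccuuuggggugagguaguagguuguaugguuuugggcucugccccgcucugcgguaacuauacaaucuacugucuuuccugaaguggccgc
Mirlet7c-1: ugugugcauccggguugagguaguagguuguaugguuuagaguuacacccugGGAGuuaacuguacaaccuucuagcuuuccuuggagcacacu

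The target sites that follow are those of 3 genes on which the results turn, read from the 3′ UTR of the longest coding transcript in GENCODE vM21 (GRCm38), with CTACCTC, the match to the seed, in capitals. CTACCTC was searched on the transcript strand only and is held by 10.1% of the 12171 tested genes with an annotated 3′ UTR. Each line gives 23 bases.
Hmga2 site 1: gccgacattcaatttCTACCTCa
Hmga2 site 2: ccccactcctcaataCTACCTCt
Hmga2 site 3: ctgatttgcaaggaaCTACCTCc
Hmga2 site 4: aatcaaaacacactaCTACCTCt
Arid3b: tatttcaataaagctCTACCTCt
E2f5: acttgggactattatCTACCTCt

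The libraries held 17458896 to 17922613 counts in the knockout, 14957111 to 22218742 with LIN28B and 15712282 to 19086842 in the wild type. The vavcre libraries stood apart. Genes with counts numbered 12079 and 12635 in them, against 13786 or more in every other adult marrow library, and the pair correlated with each other at 0.941 on the log scale, against 0.979 for the LIN28B pair without vavcre and 0.966 to 0.9745 among the knockouts. Xist, which is transcribed from the inactive X chromosome of females, was at 160.4 to 228 CPM (a gene's counts relative to the library's total, with TMM scaling between libraries) in the knockout and 164 and 173 CPM with vavcre, but at 0.914 and 2 CPM without vavcre and at most 0.274 CPM in the wild type. Sex therefore separates the knockout and vavcre libraries on the female side from the LIN28B libraries without vavcre and the wild type, and its part in any result was not tested. Cd34, a surface marker of these progenitors, was at 6.51 to 9.47 CPM in the knockout, 5.77 to 7.38 CPM with LIN28B and 6.85 to 10.1 CPM in the wild type, with no difference called. Kit, which has several transcripts, had 0 counts in every library and checks nothing here, since reads that fit more than 1 transcript are set aside in these files. Cd34 has 2 transcripts and can be undercounted for the same reason, so it is a weak check.

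The knockout and LIN28B libraries differed in 2506 of 13558 genes tested, or 18.5% (edgeR quasi-likelihood test, Benjamini-Hochberg adjusted p under 0.05, the rule for every gene called here). Of these, 1422 genes (10.5%) were higher in the knockout and 1084 (8%) were lower. Counts for the gene lists below are to be read beside these shares. Among the 827 genes that differed by at least 2-fold, 668 were higher in the knockout and 159 lower. The lean was weaker against the line without vavcre, with 169 higher and 117 lower by at least 2-fold. Against the line with vavcre 1019 were higher and 380 lower. The knockout differed from the wild type in 305 genes (2.25%), of which 180 (1.33%) were higher and 125 (0.922%) lower. LIN28B libraries differed from the wild type in 1958 genes (14.4%), of which 893 (6.59%) were higher and 1065 (7.86%) lower. With both vavcre libraries left out, which leaves fewer LIN28B libraries, the order reversed, at 597 genes for the knockout and 243 for LIN28B. These comparisons share libraries, so their counts are given side by side and not as an overlap.

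The distance from the knockout depended on the LIN28B line. Against LIN28B without vavcre, 651 genes (4.80%) differed, 333 (2.46%) higher and 318 (2.35%) lower in the knockout. Against LIN28B with vavcre, 3749 genes (27.7%) differed, 2035 (15%) higher and 1714 (12.6%) lower. The LIN28B lines differed from each other in 2799 genes (20.6%), 1270 (9.37%) higher and 1529 (11.3%) lower with vavcre. For this reason several of the results below are also given against each line alone. The count also depended on which libraries and groups were fitted. With the 4 LIN28B libraries taken as a single group and only the 7 libraries fitted, 89 genes were called, and with both vavcre libraries left out, 953. Without knockout library 1 the count was 1623, and without LIN28B library 1 it was 1595.

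At the let-7b locus, the transcript that hosts the let-7b and let-7c-2 hairpins was present in the knockout and nearly absent elsewhere. This long noncoding RNA, Lncppara (chr15:85703773-85707524), had 293, 194 and 213 counts in the 3 knockout libraries and 0 to 6 counts in each of the other 14 libraries of the series. In CPM these were 15.8, 11 and 11.1 in the knockout, 0.364 and 0.0537 with LIN28B without vavcre, 0 and 0.169 with vavcre, and 0.199, 0.0586 and 0 in the wild type. The groups did not overlap, and the log2 fold of the knockout was 6.52 ± 0.79 (SE) over LIN28B (adjusted p = 0.000187) and 7.05 over the wild type (adjusted p = 0.00222). The counts do not show which stretch of the gene was read, so they do not say whether the hairpins are missing. The hairpins themselves give no check of the deletion, since Mirlet7b and Mirlet7c-2 had 0 counts in all 17 libraries and Mirlet7c-1 had 1 count over all of them.

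Of 21 tested genes within 2 Mb of Mirlet7b on chromosome 15, 3 differed between the knockout and LIN28B, a share near the 18.5% of all genes tested: Lncppara, Celsr1 and 5031439G07Rik. Celsr1, a cadherin of planar cell polarity, was at 8.49, 11.5 and 11.9 CPM in the knockout, against 4.19 and 2.47 CPM without vavcre and 3 and 3.92 CPM with vavcre, a log2 fold of 1.65 ± 0.30 (adjusted p = 0.00181). The uncharacterised 5031439G07Rik was higher by 0.72 ± 0.13 (adjusted p = 0.00177). Both were also higher in the knockout against each line alone. Against the wild type 4 of the 21 were called in the knockout, where 2.25% of all genes tested were called: Lncppara and 5031439G07Rik again, Samm50 at 0.38 (adjusted p = 0.0110) and Ttc38 at -0.91 (adjusted p = 0.0331). Around Mirlet7c-1, 0 of 10 tested genes differed from LIN28B by edgeR. Against the wild type 1 of the 10 was called in the knockout, at a log2 fold of -0.65 (adjusted p = 0.0219).

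**Figure D1:**
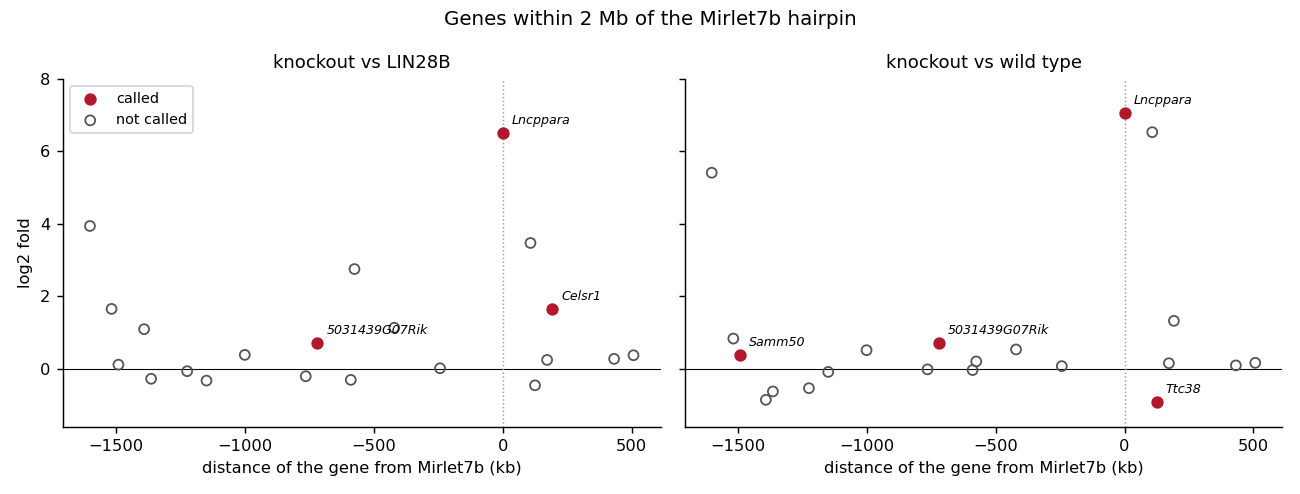
The log2 fold of each tested gene in the let-7b/c knockout, against its distance from the Mirlet7b hairpin in kb. Points are genes, in panels for the knockout over LIN28B and over the wild type, filled where called. Lncppara lies highest in both panels, at 6.52 and 7.05, and the open points above 2 are genes that did not pass the test.

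Of 6 tested genes of the LIN28B and let-7 axis, 3 were lower and 0 higher in the knockout than with LIN28B, Lin28b itself among them. Only Hmga2 was also called in the knockout against the wild type. Hmga2, a chromatin protein of fetal cells and the gene with the most seed matches among those shown above, was at 11.1, 5.66 and 6.66 CPM in the knockout. It was at 60.9 and 59.5 CPM with LIN28B without vavcre, 85.8 and 92.1 CPM with vavcre, and 31.9, 28.5 and 35.4 CPM in the wild type. The knockout was thus below the wild type and LIN28B above it, with no overlap. The log2 fold was -3.23 ± 0.18 in the knockout against LIN28B (adjusted p = 8.28e-08), -2.03 in the knockout against the wild type (adjusted p = 2.79e-05) and 1.20 with LIN28B against the wild type (adjusted p = 0.000359). Against the LIN28B lines taken alone, the knockout was lower by -2.95 without vavcre (adjusted p = 1.88e-06) and -3.51 with it (adjusted p = 1.17e-07).

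Lin28b itself was higher in the LIN28B libraries, on low counts. It had 5, 5 and 2 counts in the knockout, 34 and 61 without vavcre, 41 and 93 with vavcre, and 15, 1 and 5 in the wild type. In CPM this was 0.104 to 0.283 in the knockout, 1.73 to 3.92 with LIN28B and 0.0586 to 0.745 in the wild type. Lin28b rose with LIN28B against the wild type by 2.86 on the log2 scale (adjusted p = 0.00133), and the knockout was lower than LIN28B by a log2 fold of -3.63 ± 0.51 (adjusted p = 0.000287). These reads count the mouse gene, so they check the induction only if the induced gene is the mouse one. What a transgene from another species would add was not tested. For Lin28a, the related gene, the log2 fold was -0.25 with a 95% interval of -2.45 to 1.95, on values of at most 1.86 CPM.

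The IGF2BP genes encode RNA-binding proteins of fetal tissues and are let-7 targets. Igf2bp3 was at 4.06, 4.19 and 2.81 CPM in the knockout, against 6.37 and 6.07 CPM without vavcre and 13.5 and 6.58 CPM with vavcre, a log2 fold of -1.10 ± 0.20 (adjusted p = 0.00186). Against the line without vavcre alone the log2 fold was -0.76 and was not called (adjusted p = 0.104). Igf2bp2, at -0.47 ± 0.20 (adjusted p = 0.125), and Igf2bp1, at -1.29 ± 0.63 (adjusted p = 0.166), were not called. Without vavcre library 6 both passed, at -0.62 (adjusted p = 0.0187) and -1.6 (adjusted p = 0.0487). Between the knockout and the wild type no IGF2BP gene was called, with log2 folds of -0.11 for Igf2bp3, -0.21 for Igf2bp2 and -0.10 for Igf2bp1. Igf2bp3 was at 4.22, 3.92 and 3.72 CPM in the wild type.

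Other known let-7 targets that were called were nearly all lower in the knockout than with LIN28B. Of 38 tested members of a list of targets, 18 were lower and 1 higher in the knockout than with LIN28B, and the median log2 fold was -0.42, against 0.07 over all genes tested. Against the line without vavcre 12 were lower and 0 higher, and against the line with vavcre 16 were lower and 2 higher. Set against the wild type, 3 were lower and 0 higher in the knockout, while 14 were higher and 0 lower with LIN28B. The list's summed level was 2027 to 2040.2 CPM in the knockout, 2705 to 3098 CPM with LIN28B and 2129 to 2255 CPM in the wild type. No knockout library reached the range of the wild type or of LIN28B.

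Arid3b, a DNA-binding protein that acts on growth genes, was at 11.2, 8.89 and 9.52 CPM in the knockout, 41.0 and 39.1 CPM without vavcre, 30.3 and 31.9 CPM with vavcre, and 18.7, 15.1 and 14.9 CPM in the wild type. It repeated the order of Hmga2: the log2 fold was -1.84 ± 0.13 in the knockout against LIN28B (adjusted p = 1.99e-06) and -0.72 in the knockout against the wild type (adjusted p = 0.0133). Mycn, a MYC-family transcription factor, was at 50.1, 10.8 and 39.1 CPM in the knockout, 159 CPM in both libraries without vavcre, 169 and 143 CPM with vavcre, and 107, 121 and 116 CPM in the wild type. The knockout was lower than LIN28B by a log2 fold of -2.24 ± 0.32 (adjusted p = 0.000333) and lower than the wild type by -1.78 (adjusted p = 0.0116). Its values with LIN28B were above those of the wild type in every library, but that difference, 0.46, was not called (adjusted p = 0.335). Mycn has no CTACCTC in the 3′ UTR searched.

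For another set of targets LIN28B was called higher than the wild type and the knockout was not called against it. The cell-cycle factor E2f5 was at 11.3, 12.7 and 10.4 CPM in the knockout, 22 to 28.7 CPM with LIN28B and 11.7 to 15.7 CPM in the wild type, a log2 fold of -1.10 ± 0.14 in the knockout against LIN28B (adjusted p = 0.000178). The TGF-beta receptor gene Tgfbr1 was at 71.4 to 87.7 CPM in the knockout, 128 to 177 CPM with LIN28B and 71.2 to 98.6 CPM in the wild type, a log2 fold of -0.88 ± 0.12 (adjusted p = 0.000198). Nras, a signalling GTPase, differed by -0.54 ± 0.06 (adjusted p = 4.57e-05), Igf1r, the receptor of insulin-like growth factors, by -0.54 ± 0.10 (adjusted p = 0.00181), and Dicer1, which cuts microRNA precursors, by -0.53 ± 0.10 (adjusted p = 0.00168). None of these 5 genes was called between the knockout and the wild type, where the log2 folds were -0.25, -0.10, -0.01, -0.18 and 0.00, and each was higher with LIN28B than in the wild type. The kinase gene Cdk6 was the member that went the other way, at 0.50 ± 0.14 (adjusted p = 0.0242). That difference lay with the vavcre line, at 0.97 against it and 0.03 against the line without vavcre, and it was not called without knockout library 3 (0.40, adjusted p = 0.0843). Like Mycn, Dicer1 and Cdk6 have no CTACCTC in the 3′ UTR searched.

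**Figure D2:**
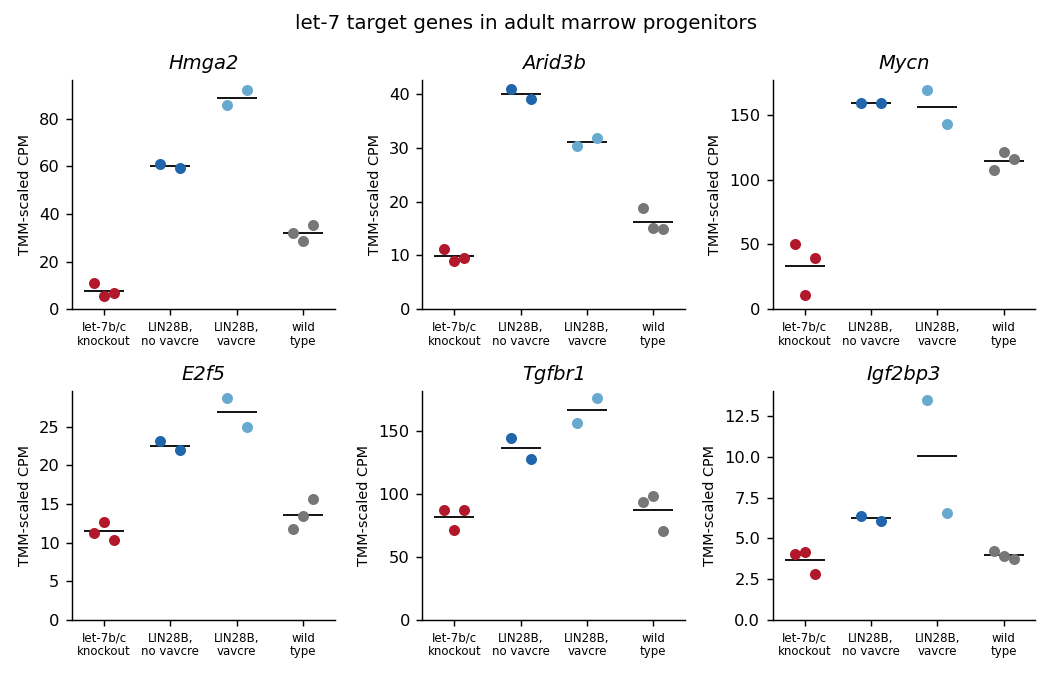
Levels of Hmga2, Arid3b, Mycn, E2f5, Tgfbr1 and Igf2bp3 in CPM, 1 point per library, in the let-7b/c knockout, LIN28B without vavcre, LIN28B with vavcre and the wild type, with bars at the group means. The knockout points of Hmga2, Arid3b and Mycn lie below the wild type, while those of E2f5 and Tgfbr1 lie in or near its range.

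Genes with a seed match in the 3′ UTR leaned in the direction of the known targets. Of 1074 tested genes with 1 match, 7.91% were higher and 12.6% lower in the knockout than with LIN28B, and of 158 with 2 or more, 10.1% were higher and 15.8% lower. Among the 10939 genes with none, the balance was reversed, at 11% higher and 8.15% lower. With LIN28B against the wild type, 6.66% of the genes with no match were higher, 10.8% of those with 1 match and 13.3% of those with 2 or more. In the knockout against the wild type, the shares called higher were 1.33%, 1.77% and 1.27% and those called lower 0.932%, 1.40% and 1.90%, on 5 called genes in the last class. The median log2 fold of the knockout against LIN28B was 0.07 with no match, -0.01 with 1 and -0.03 with 2 or more, so the middle of each class differed little and the shares called set the classes apart. Against the line without vavcre alone, 2.6% of genes with no match were higher and 2.18% lower, 2.51% and 4.84% of those with 1, and 1.27% and 8.86% of those with 2 or more. Against the line with vavcre the shares were 15.6% and 13.3% with no match, 12.6% and 16.0% with 1, and 15.2% and 18.4% with 2 or more, and the median of the last class was 0.07, against -0.14 for the line without vavcre. Genes with more matches have longer 3′ UTRs, with medians of 982 bases for no match, 2161 for 1 and 3534 for 2 or more. Within the shortest UTRs, the first of 3 classes of equal size by length, 4.21% of 95 genes with a match were higher and 16.8% lower in the knockout, against 12.6% and 7.85% of 3963 genes without. In the middle class the shares were 7.87% and 14.3% of 343 genes with a match, against 10.1% and 8.18% of 3715 without. The gap was smallest in the longest UTRs, which hold most of the genes with a match, at 8.82% and 12.0% of 794, against 10% and 8.46% of 3261 without.

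**Figure D3:**
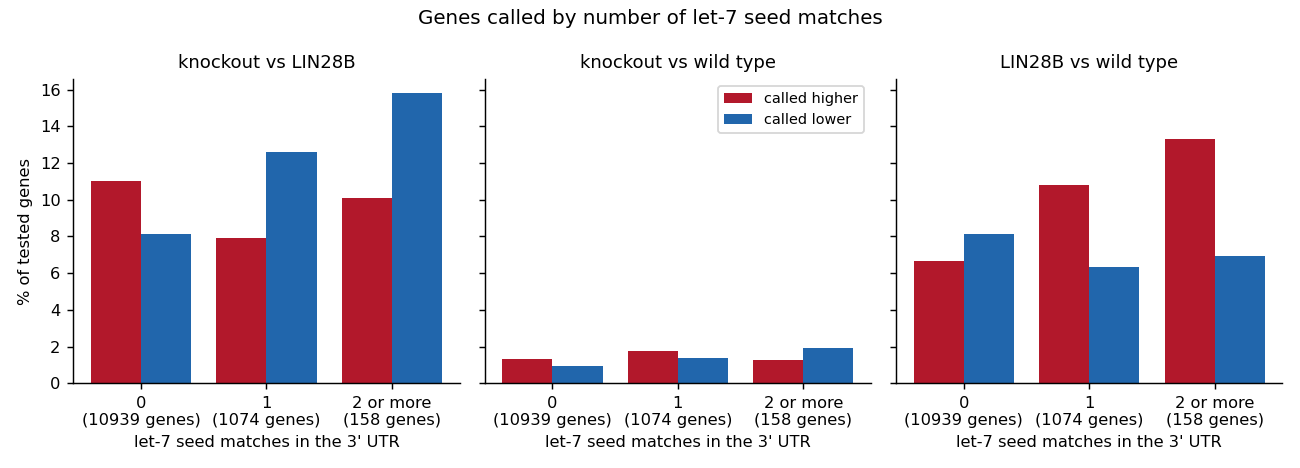
Percent of tested genes called higher and lower, by the number of let-7 seed matches in the 3′ UTR (0, 1, 2 or more), for the knockout over LIN28B, the knockout over the wild type and LIN28B over the wild type. The share lower in the knockout than with LIN28B is 8.15%, 12.6% and 15.8%, while knockout over wild type stays under 2% throughout.

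Smug1, which removes uracil from DNA and has 2 seed matches, was at 14.1, 14.1 and 18.9 CPM in the knockout, 37.0 and 36.5 CPM without vavcre, 61.2 and 55.6 CPM with vavcre, and 21.7 to 25.1 CPM in the wild type. It was lower in the knockout than with LIN28B by -1.56 ± 0.13 on the log2 scale (adjusted p = 5.59e-06) and also lower than the wild type, by -0.60 (adjusted p = 0.0311). Alkbh4, a demethylase, differed from LIN28B by -1.03 ± 0.14 (adjusted p = 0.000259), and Ankrd49 by -0.64 ± 0.08 (adjusted p = 9.32e-05), with the knockout close to the wild type for both. A gene with 2 matches could also go the other way: the bicarbonate transporter gene Slc4a8 was higher in the knockout by 1.49 ± 0.19 (adjusted p = 0.000137).

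Monocyte genes differed in the other direction. Of 22 tested monocyte and dendritic cell genes, 13 were higher and 0 lower in the knockout than with LIN28B, with a median log2 fold of 2.22. The count was 8 higher and 0 lower against the line without vavcre and 10 and 0 against the line with vavcre. The knockout was also above the wild type in 7 members and below it in 1, and LIN28B was below the wild type in 9 and above it in 0. The list's summed level was 3431 to 3991 CPM in the knockout, 858 to 1226 CPM with LIN28B and 1229 to 1384 CPM in the wild type. Macrophage markers were less marked, with 3 of 14 tested members higher and 0 lower, and a summed level of 59.6 to 76.8 CPM in the knockout, 29.3 to 88.2 CPM with LIN28B and 98.2 to 116 CPM in the wild type. In a sorted population, more cells on the way to monocytes and more RNA of these genes per cell cannot be told apart.

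Ccr2, the chemokine receptor that brings monocytes out of the marrow, was at 1235, 1572 and 1605 CPM in the knockout, 17.6 and 6.88 CPM without vavcre, 3.17 and 36.4 CPM with vavcre, and 49.9, 60.8 and 68.3 CPM in the wild type. Every knockout library lay above every other one, and every LIN28B library lay below the wild type. The log2 fold was 6.57 ± 0.54 over LIN28B (adjusted p = 5.16e-06) and 4.62 over the wild type (adjusted p = 0.000579). Its neighbour in function Ccr1 was at 76.1, 122 and 74.3 CPM in the knockout, 3.42 to 6.58 CPM with LIN28B and 3.75 to 6.08 CPM in the wild type. Here the LIN28B and wild-type ranges overlapped, with a log2 fold of -0.01 between them, and the knockout was above LIN28B by 4.13 ± 0.27 (adjusted p = 7.51e-07).

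Csf1r, the receptor that monocytes need to survive, was at 240.4, 334 and 206 CPM in the knockout, 44.7 and 34.4 CPM without vavcre, 81.7 and 89.3 CPM with vavcre, and 91.5, 113 and 100.2 CPM in the wild type. It was higher in the knockout than with LIN28B by 2.16 ± 0.16 (adjusted p = 2.06e-06) and higher than the wild type by 1.36 (adjusted p = 0.000770), while LIN28B was lower than the wild type by -0.80 (adjusted p = 0.00382). Ly86, a partner of a Toll-like receptor, showed the same order, at 2.84 ± 0.21 in the knockout over LIN28B (adjusted p = 2.11e-06), and so did the fractalkine receptor gene Cx3cr1, at 2.29 ± 0.21 (adjusted p = 1.10e-05). Mpeg1, a pore-forming protein of phagocytes, was at 55.8, 51.2 and 16.6 CPM in the knockout and 1.67 to 5.28 CPM with LIN28B. For Ly6c2, which marks inflammatory monocytes, the knockout libraries held 156, 237 and 90.0 CPM, LIN28B 5.40 to 23.6 CPM and the wild type 55.5 to 78.7 CPM. Ly6c2 was higher over LIN28B by 3.36 ± 0.45 (adjusted p = 0.000193), but not called over the wild type (1.28, adjusted p = 0.184). Among the largest rises were also Clec7a, a receptor for fungal glucans (4.23 ± 0.44), Ms4a6c (3.17 ± 0.24), Ppfia4 (3.12 ± 0.32) and Slpi, an inhibitor of neutrophil elastase (3.08 ± 0.42), with adjusted p of at most 0.000225.

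Genes of promyelocytes, among them enzymes of the primary granules that these cells make, followed the monocyte genes. The list also holds genes that are not granule enzymes, such as the receptor gene Igsf6. Of its 14 tested members, 9 were higher and 0 lower in the knockout than with LIN28B, with a median log2 fold of 1.26. Against the line without vavcre 9 were higher, and against the line with vavcre 8. The knockout was above the wild type in 2 members and LIN28B below it in 7. Myeloperoxidase, Mpo, was at 13835, 16912 and 13563 CPM in the knockout, 5728 and 5156 CPM without vavcre, 8707 and 10689 CPM with vavcre, and 9493, 11443 and 9687 CPM in the wild type, a log2 fold of 1.02 ± 0.16 over LIN28B (adjusted p = 0.000701). Neutrophil elastase, Elane, was at 569, 1089.9 and 608 CPM in the knockout, 90.2 and 53.6 CPM without vavcre, 62.4 and 375 CPM with vavcre, and 256, 400.1 and 377 CPM in the wild type. Its log2 fold was 2.59 ± 0.47 over LIN28B (adjusted p = 0.00167), and vavcre library 6 alone lay in the wild-type range. Proteinase 3, Prtn3 (1.51 ± 0.20, adjusted p = 0.000187), cathepsin G, Ctsg (1.64 ± 0.22, adjusted p = 0.000196), and the cell-cycle regulator Ms4a3 (2.71 ± 0.41, adjusted p = 0.000480) were higher as well. Of 16 tested genes of late neutrophils, 1 was higher, Padi4 at 1.09, and 1 lower, beside 10.5% and 8% of all genes tested.

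The transcription factor Spi1, known as PU.1 and needed for both lineages, was at 236 to 254 CPM in the knockout, 159 to 195 CPM with LIN28B and 184 to 204 CPM in the wild type. The groups of the comparison did not overlap, but the difference was small, 0.50 ± 0.11 (adjusted p = 0.00490). Csf2rb, the common beta chain of cytokine receptors for granulocytes and monocytes, was at 138 to 157 CPM in the knockout, 50.4 to 93.3 CPM with LIN28B and 76.6 to 81.9 CPM in the wild type, a log2 fold of 0.98 ± 0.17 (adjusted p = 0.00108).

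Regulators of red cells and platelets ran the opposite way. Of 23 tested erythroid genes 7 were lower and 1 higher in the knockout than with LIN28B, and of 19 megakaryocyte and platelet genes 9 were lower and 1 higher, with medians of -0.52 and -0.43. Against the line without vavcre 5 erythroid genes were lower and 1 higher, and against the line with vavcre 10 and 0. The erythroid median was -0.11 against the line without vavcre and -0.45 against the line with it. The megakaryocyte count was 6 lower and 1 higher against each line. Without knockout library 2, the erythroid count was 11 lower and 0 higher, and the megakaryocyte count 6 lower and 1 higher. Without knockout library 1, the erythroid count was 4 lower and 1 higher. Gata1, the master regulator of both lineages, was at 56.9, 82.1 and 83.4 CPM in the knockout, 232 and 221 CPM without vavcre, 222 and 135 CPM with vavcre, and 113, 131 and 128 CPM in the wild type. The knockout was the lowest group and LIN28B the highest, with no overlap, at -1.44 ± 0.15 between them (adjusted p = 3.78e-05), -0.74 for the knockout against the wild type (adjusted p = 0.0219) and 0.70 for LIN28B against the wild type (adjusted p = 0.00603).

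Klf1, which switches on globin and other red cell genes, was at 28.7, 88.9 and 53.9 CPM in the knockout, 152 and 157 CPM without vavcre, 179.9 and 128 CPM with vavcre, and 54.0, 85.8 and 73.4 CPM in the wild type. It differed from LIN28B by -1.43 ± 0.27 (adjusted p = 0.00203), while the knockout overlapped the wild type. Gata2, a factor of early progenitors and megakaryocytes, was at 314, 211 and 378 CPM in the knockout, 761 and 780.5 CPM without vavcre, 509 and 440.4 CPM with vavcre, and 457 to 479 CPM in the wild type, a log2 fold of -1.01 ± 0.14 (adjusted p = 0.000313). Zfpm1, the cofactor of Gata1, differed by -0.97 ± 0.09 (adjusted p = 2.13e-05), and Icam4, a red cell adhesion protein, by -1.06 ± 0.11 (adjusted p = 3.94e-05), both lower than the wild type too. On the platelet side, the thrombin receptor gene F2r differed by -1 ± 0.23 (adjusted p = 0.00677) and Nrgn by -1.05 ± 0.20 (adjusted p = 0.00210), but Selp, an adhesion molecule of platelets and endothelium, was higher in the knockout by 2.12 ± 0.33 (adjusted p = 0.000614).

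Knockout library 2 held more RNA of red cell and eosinophil genes than the other knockout libraries. The erythroid list's summed level was 2588 CPM in it and 988 and 1384 CPM in the others, against 2626 to 3114 CPM with LIN28B. Ermap, a red cell membrane protein, was at 168 CPM in it and 16.1 and 28.2 CPM in the others, against 44.9 to 70.2 CPM with LIN28B, and without that library it was lower in the knockout by -1.41 (adjusted p = 0.0197). The eosinophil granule genes Prg2, at 86.0 CPM there and at most 1.18 CPM in the other knockout and LIN28B libraries, and Epx, at 47.2 CPM there and at most 2.53 CPM elsewhere, owed their calls to it, with log2 folds of -0.25 and -2.75 without it. Of 19 tested mast cell, basophil and eosinophil genes, 6 were higher and 3 lower, and without that library 3 were higher and 2 lower. Against the line without vavcre 1 was higher and 4 were lower, and against the line with vavcre 4 and 1. The list's summed level was not raised, at 516 to 572 CPM in the knockout, 572 to 987 CPM with LIN28B and 590.1 to 711 CPM in the wild type. The rise of Fcer1a, the IgE receptor chain of mast cells and basophils, did not rest on knockout library 2. Fcer1a was at 10.8, 11.2 and 9.99 CPM in the knockout, 3.22 and 0.967 CPM without vavcre, 0 CPM in both vavcre libraries and 0.219 to 0.703 CPM in the wild type. It was at least 168-fold higher in the knockout than with vavcre, taking 3 counts over both vavcre libraries as the limit.

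**Figure D4:**
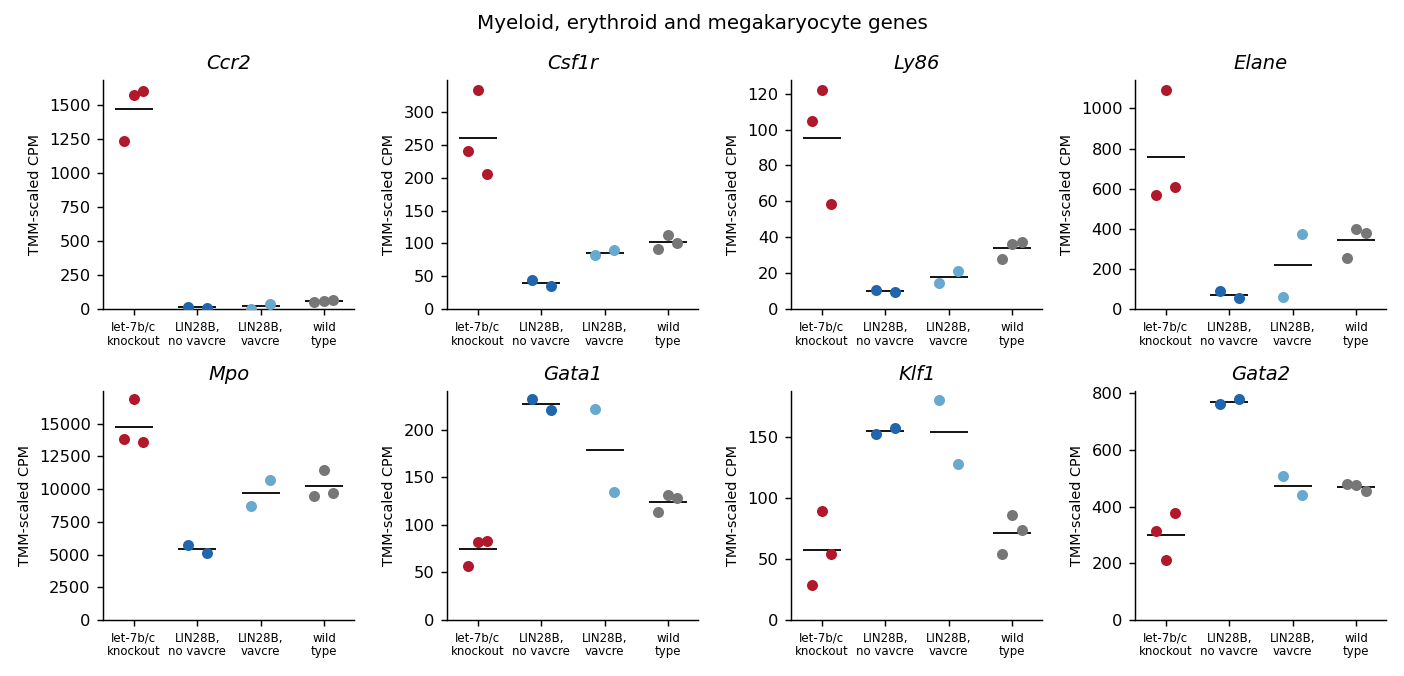
Levels of Ccr2, Csf1r, Ly86, Elane, Mpo, Gata1, Klf1 and Gata2 in CPM, 1 point per library, in the let-7b/c knockout, LIN28B without vavcre, LIN28B with vavcre and the wild type, with bars at the group means. The knockout is the highest group for the monocyte and granule genes and lies below both LIN28B lines for Gata1, Klf1 and Gata2.

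Some gene groups differed from 1 LIN28B line and hardly from the other. Of 74 tested ribosomal protein genes, 60 were higher and 1 lower in the knockout than in the mean of the lines, with a median of 0.57, but 2 were higher and 0 lower against the line without vavcre, and 61 higher and 1 lower against the line with vavcre. The summed level was 64174 to 82301 CPM in the knockout, 60261 and 67977 CPM without vavcre, 47476 and 42839 CPM with vavcre, and 60137 to 78707 CPM in the wild type, so the vavcre libraries were the ones that stood low. Rpl36 was at 512 to 715 CPM in the knockout, 509.8 and 576 CPM without vavcre and 202 and 184 CPM with vavcre. Rps2 was the exception among those named, higher against each line, by 0.27 (adjusted p = 0.0431) without vavcre and 0.75 (adjusted p = 8.91e-06) with it.

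The G2/M genes of dividing cells had the same shape with the sign turned. Of 24 tested, 11 were lower and 0 higher in the knockout than with LIN28B, 0 and 0 against the line without vavcre by edgeR, and 13 lower against the line with vavcre. Plk1, a mitotic kinase, was at 119 to 163 CPM in the knockout, 160.3 and 153 CPM without vavcre, 442 and 351 CPM with vavcre and 137 to 148 CPM in the wild type, and Cdca8 of the chromosomal passenger complex differed in the same way, by -1.13 against the vavcre line and -0.17 against the other. Of 31 tested interferon response genes, 6 were lower and 2 higher, with a median log2 fold of -0.16. Against the line without vavcre 3 were lower and 1 higher, with a median of -0.03. Against the line with vavcre 12 were lower and 2 higher, with a median of -0.57. The interferon genes named here are all among the lower ones. Oasl2, an interferon-induced antiviral protein, was at 8.71, 4.41 and 15 CPM in the knockout, 29.6 and 31.2 CPM without vavcre, 107 and 84.7 CPM with vavcre, and 39.8 to 43.5 CPM in the wild type. The knockout was below all other groups, at -2.52 ± 0.29 against LIN28B (adjusted p = 8.11e-05) and -2.15 against the wild type (adjusted p = 0.00166). Rtp4 (-1.71 ± 0.23, adjusted p = 0.000229) was lower against each line too, while Usp18 (-1.41 ± 0.28, adjusted p = 0.00267) was not called against the line without vavcre.

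**Figure D5:**
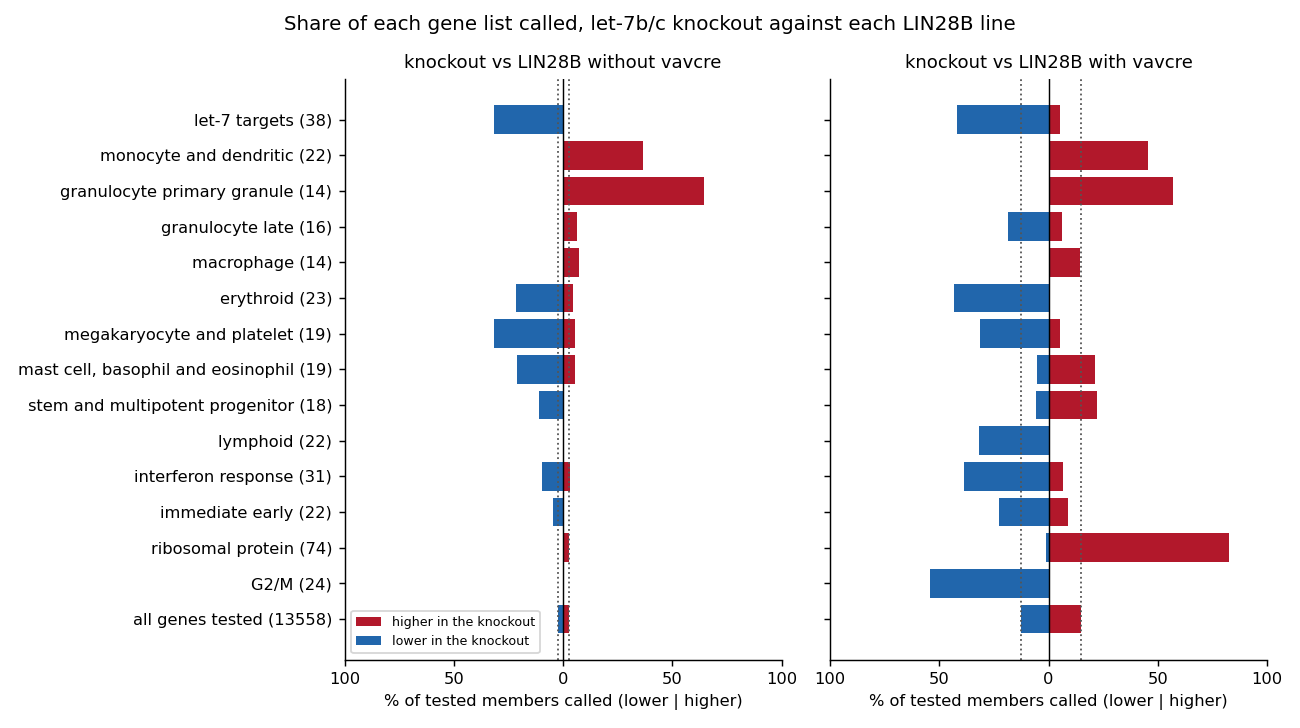
Percent of the tested members of each gene list called higher and lower in the let-7b/c knockout, against LIN28B without vavcre and against LIN28B with vavcre, with dotted lines at the share of all genes tested. The monocyte, primary granule and let-7 target lists stand out against both lines, while the ribosomal protein and G2/M lists do so against the vavcre line only by these counts.

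Stress-induced immediate early genes were high in both genotypes against the wild type. Fos was at 82.6, 109.6 and 54.0 CPM in the knockout, 32.2 and 164 CPM without vavcre, 100.5 and 84.3 CPM with vavcre, and 1.11 to 2.08 CPM in the wild type. Between the knockout and LIN28B its log2 fold was -0.22, with a 95% interval of -1.17 to 0.74, and against the wild type it was 5.67 for the knockout and 5.88 for LIN28B. Jun was at 391 to 442 CPM in the knockout, 444 to 972 CPM with LIN28B and 14.1 to 19.1 CPM in the wild type. Of 22 tested members, 10 were higher in the knockout than in the wild type and 14 with LIN28B. Between the genotypes, 2 were higher and 5 lower in the knockout, and the lower ones included Junb at -1.07 ± 0.17 (adjusted p = 0.000619) and Dusp1 at -0.99 ± 0.23 (adjusted p = 0.00733), both called against the vavcre line and not against the other. The wild-type libraries thus differ from both genotypes in genes that respond to tissue handling, and the part of handling was not tested.

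Among the largest single falls was that of the polycomb gene Cbx7, for which the knockout was the lowest group. It was at 3.84, 2.83 and 3.38 CPM in the knockout, 22.7 and 12.8 CPM without vavcre, 18.8 and 15.7 CPM with vavcre, and 22.5, 24.3 and 24.5 CPM in the wild type, with log2 folds of -2.38 ± 0.24 against LIN28B (adjusted p = 2.83e-05) and -2.82 against the wild type (adjusted p = 2.79e-05), and LIN28B was not called against the wild type (-0.44, adjusted p = 0.183). Trib2, a pseudokinase, was at 20.1, 27.2 and 51.9 CPM in the knockout, 212 and 228 CPM without vavcre, 129 and 76.8 CPM with vavcre, and 75.0 to 94.2 CPM in the wild type, a log2 fold of -2.19 ± 0.28 (adjusted p = 0.000148). Hnf4a, a nuclear receptor best known from liver, was at 5.49 to 12.4 CPM in the knockout, 28.9 to 48.6 CPM with LIN28B and 23.8 to 30.2 CPM in the wild type, at -2.04 ± 0.37 (adjusted p = 0.00168). The stem cell factor Mecom was at 9.68 to 16.7 CPM in the knockout, 8.44 and 7.58 CPM without vavcre, 2.79 and 2.53 CPM with vavcre, and 12.5 to 13.9 CPM in the wild type, so that its rise of 1.38 ± 0.28 (adjusted p = 0.00309) came with the vavcre line, which also held fewer detected genes.

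Other falls were uneven within the LIN28B lines. Stfa1 and Cstdc5, of the stefin family, had 0 to 0.468 CPM in the knockout and spread over 0.484 to 39.1 CPM and 0.860 to 107 CPM with LIN28B. Reads may be split among near-identical family members, so both values are uncertain. Olfm4, a neutrophil granule protein, was at 0.108 to 2.38 CPM in the knockout and 5.04 to 36.9 CPM with LIN28B, and its call (-3.37, adjusted p = 0.0156) was lost without knockout library 1 (-2.81, adjusted p = 0.0653) or 3 (-3.15, adjusted p = 0.0529). The B cell genes Cd79a, at 25.5 CPM, and Ms4a1, at 28.6 CPM, were highest in vavcre library 6, against at most 3.62 and 1.24 CPM in the knockout. Cd79a differed by -2.43 (adjusted p = 0.0147), at -2.20 and not called without knockout library 1 (adjusted p = 0.0713). Of 22 tested lymphoid genes, 1 was higher and 2 lower in the knockout, beside 10.5% and 8% of all genes tested. Wdfy1, which is known to vary between mouse strains, was at 144 to 153 CPM in the knockout, 63.0 and 62.2 CPM without vavcre, 19.9 and 18.1 CPM with vavcre, and 66.3 to 130.2 CPM in the wild type.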

How the data were processed

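RNA from 17 libraries of sorted mouse common myeloid progenitors was read from the deposited files. Per the labels' protocols, total RNA was taken with Trizol and turned into libraries with SMARTer ultra-low input and Low Input Library Prep chemistry. Trimming, alignment and counting tools in the submitters' processing notes are cutadapt, TopHat2 and HTSeq, with build mm10; versions and strand setting are not given. The authors deposited raw read counts per RefSeq transcript. These were planned for as counts per gene, so the 33818 transcripts were summed to 24416 genes. Names came from RefSeq for GRCm38.p6 (33435) or GENCODE vM21 (191). The 192 without a name were each kept as an entry of their own. Ambiguous reads, which HTSeq assigns to no transcript, made up 23.8% to 29.8% of reads placed once, and those with no feature 8.87% to 19.3%. Both stayed out of library sizes and tests, so genes with several transcripts or overlapping neighbours can be undercounted.

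All 17 libraries were fitted with 7 group means in edgeR 4.0.16 (R 4.3.3) by the quasi-likelihood test, with TMM scaling and the default filter on low counts, which left 10 residual degrees of freedom and 13558 genes. Contrasts set the knockout against the mean of the LIN28B lines, each line and the wild type. Adjusted p-values are Benjamini-Hochberg over all genes tested, called under 0.05. Log2 folds are given with a standard error, levels as TMM-scaled CPM, and a limit for 0 as 3 counts. Lists and seed classes are described by counts and medians, with no test. On simulated counts for the comparison of the knockout with LIN28B (12632 genes), 82% of 100 genes changed 2-fold and 98% of 100 changed 4-fold were called in the right direction, with 9 false calls. Apart from the changed genes, the simulation gave all groups the same mean. It held no difference between the LIN28B lines, so it does not show how the test behaves with that difference. Alternatives were DESeq2 1.42.0 size factors and Wald test, no filter, adult marrow libraries only, genes with 1 transcript, a replicate block, the LIN28B libraries as 1 group, each library left out and, added after seeing the data, both vavcre libraries left out. Python 3.11.15 with pandas 2.3.3 made the tables and matplotlib 3.10.9 the figures.

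The members, the gene lists and the tests were chosen with earlier results of these data known. Genes named are the axis genes, the 10 largest rises and 10 largest falls with at least 10 CPM and no overlap, up to 3 called members per list and direction, called genes with several seed matches, and genes within 500 kb of the hairpins. By these rules 145 genes could be named. Of the 78 named here or in the closing section, 20 were chosen after their values were seen: 5031439G07Rik, Cd34, Csf2rb, Ctsg, Cx3cr1, E2f5, Elane, Epx, Ermap, F2r, Fos, Igf1r, Jun, Klf1, Mpo, Ms4a1, Ms4a3, Samm50, Spi1 and Tgfbr1.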

Additional observations from a re-analysis of the deposited data

Results flagged for a closer look

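In 9 of the 78 genes, 1 of the 4 LIN28B libraries stood apart from the other 3 by Dixon's test, a test that chance passes in about 5% of groups. The library was the highest at 1.86 CPM for Lin28a, 11.9 CPM for Igf2bp2, 13.5 CPM for Igf2bp3, 375 CPM for Elane, 36.9 CPM for Olfm4, 1.18 CPM for Prg2, 7.38 CPM for Cd34 and 28.6 CPM for Ms4a1, and the lowest at 135 CPM for Gata1. In each of these genes the library was 1 of the pair with vavcre: library 4 for Igf2bp2 and Igf2bp3, and library 6 for the others.

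In 28 of the 78 genes the effect of the knockout differed between the LIN28B lines by the edgeR contrast of the lines themselves (adjusted p under 0.05). The values are the log2 difference in level between the lines, vavcre minus no vavcre. The log2 fold of the knockout shifts between the lines by the same amount with the opposite sign. Among let-7 targets and genes with seed matches it was 0.35 for Nras, -0.94 for Cdk6, 0.67 for Smug1 and 0.55 for Ankrd49. Among monocyte and granule genes it was 1.11 for Csf1r, 0.85 for Ly86, -1.06 for Cx3cr1, 0.83 for Mpo and 1.80 for Igsf6. Among genes of the red cell, platelet and mast cell lines and early progenitors it was -8.36 for Fcer1a (0 counts with vavcre, so the fitted size depends on the prior count), -1.03 for Zfpm1, -0.83 for Icam4, -0.70 for Gata2, -1.07 for F2r, -1.09 for Trib2 and -1.59 for Mecom. Interferon genes were higher with vavcre, at 1.66 for Oasl2, 1.43 for Rtp4 and 1.32 for Usp18, as were 3.51 for Cstdc5 and 3.35 for Stfa1. Ribosomal protein genes were lower, at -0.48 for Rps2 and -1.49 for Rpl36. Mitotic genes were higher, at 1.34 for Plk1 and 0.95 for Cdca8, and so were the immediate early genes Dusp1 at 1.09 and Junb at 0.95. Wdfy1 was lower, at -1.72. The lines also differ in sex and in detected genes, and the part of either was not tested.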

How the results depend on the processing

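The count of genes called between the knockout and LIN28B, 2506, was 541 with a replicate block, 89 with the LIN28B libraries as 1 group of a fit on 7 libraries, 953 without both vavcre libraries (673 shared with the 2506) and 1595 to 3193 with 1 library left out. The fit on 7 libraries counts the difference between the LIN28B lines as spread within a group. The block leaves fewer residual degrees of freedom, and leaving libraries out leaves fewer samples. The part of each in these counts was not tested. Against the wild type, the knockout count of 305 was 784 by DESeq2's Wald test, 113 with adult marrow libraries only, 35 with the block, 597 without both vavcre libraries and 96 to 600 with 1 library left out, the lowest without wild-type library 2 and the highest without vavcre library 4. The LIN28B count of 1958 was 1197 with adult marrow libraries only, 274 with the block, 243 without both vavcre libraries and 1095 to 2672 with 1 left out, the lowest again without wild-type library 2. Against LIN28B without vavcre, 651 was 1079 by DESeq2, 380 with adult marrow libraries only, 123 with the block and 230 to 956 with 1 left out, at 240 without library 1 and 230 without library 5 of that line. Against LIN28B with vavcre, 3749 was 1252 with the block and 3029 to 4030 with 1 left out. The numbers do not pair the samples: libraries with the same number correlated at -0.0834 to 0.0290 in their deviations from the group means, and the knockout and LIN28B share only number 1, so the block result says nothing of a weaker effect. Directions reversed for Epx with the block (-1.64) and, without knockout library 2, for Epx (-2.75), Ermap (-1.41) and Prg2 (-0.25), whose highest values with 1 library left out were 8.59, 0.74 and 6.87. Of the 68 called genes that are named, 53 kept their call without both vavcre libraries, 50 with the block and 25 in the fit on 7 libraries. Lower calls among let-7 targets ranged over 4 to 19 of the members tested, with the fit on 7 libraries giving 4, and higher calls among monocyte genes over 7 to 15. In the fit on 7 libraries other lists lost most or all of their calls, with 2 higher among 14 primary granule genes, 1 lower among 21 erythroid genes, and 0 among 17 megakaryocyte, 70 ribosomal protein, 22 G2/M, 30 interferon and 21 immediate early genes. Counts below about 3 per library, 0.135 to 0.201 CPM with LIN28B, limit what can be said of genes such as Lin28a.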

Other observations

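Among the 19 tested genes of microRNA processing and silencing, 2 were higher and 2 lower in the knockout than with LIN28B, shares near the 10.5% and 8% of all genes tested. The lower ones were Dicer1 and Tarbp2, the gene of Dicer's RNA-binding partner. Tarbp2 was at 4.33, 3.79 and 4.84 CPM in the knockout, 8.32 and 7.25 CPM without vavcre, 9.45 and 7.30 CPM with vavcre, and 4.05 to 5.04 CPM in the wild type. Its log2 fold was -0.90 ± 0.23 (adjusted p = 0.0140), and -0.80 and not called without knockout library 2 (adjusted p = 0.0610). The granule list's receptor gene Igsf6 was at 135, 174 and 137 CPM in the knockout, 28.2 and 18.2 CPM without vavcre, 62.7 and 98.3 CPM with vavcre, and 64.7 to 85.8 CPM in the wild type, a log2 fold of 1.78 ± 0.20 over LIN28B (adjusted p = 7.39e-05).

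Of 17 tested glycolysis genes, 4 were higher and 2 lower in the knockout than with LIN28B, with a summed level of 3029 to 3425 CPM in the knockout, 2447 to 2774 CPM with LIN28B and 2656 to 2882 CPM in the wild type. Of 72 tested genes of oxidative phosphorylation, 10 were higher and 2 lower, and the median log2 fold was 0.06, against 0.07 over all genes tested. Of 19 genes of heme and iron handling, 2 were higher and 4 lower. Over all genes tested, 10.5% were higher and 8% lower in the knockout than with LIN28B. Of 18 tested stem and multipotent progenitor genes, 4 were higher and 2 lower, with 0 higher and 2 lower against the line without vavcre and 4 higher and 1 lower against the line with it.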
